A study of Mus musculus with 80 samples.

Results

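The genes described here encode the proteins of the cytosolic ribosome, measured in kidney RNA of 40 mice of the inbred strain C57BL/6, which ate regular feed freely and which the labels give no other treatment. The RNA of each mouse, labelled with radioactive phosphorus, was hybridised to 2 nylon filters that carry different spotted clones, set A and set B. The mice were 17 to 44, 169 to 194, 476 to 499 or 704 to 743 days old, with 5 males and 5 females in each age group. Titles carried serial numbers that ran in 5 blocks, called rounds here, and in a round each age group had 1 male and 1 female; no label says what a block was. The ribosomal protein clones were those with exactly 1 gene symbol, either Rps or Rpl followed by a digit or 1 of Rplp0, Rplp1, Rplp2 and Rpsa, with the S6 kinases (Rps6k) left out. This gave 146 of the 16896 clones, 49 on set A and 97 on set B. They stood for 66 genes, 23 of the small subunit with 51 clones and 43 of the large subunit with 95 clones. Another 29 clones carried a ribosomal protein symbol beside other symbols and were left out, and for this reason Rpl22 had no clone of its own.

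The ribosome joins a small subunit, which reads the mRNA, to a large subunit, which links amino acids and lets the new protein out through a tunnel. Its proteins are made in matched amounts from genes scattered over the genome, and their mRNAs begin with a run of pyrimidines, the terminal oligopyrimidine tract, through which mTOR signalling sets how strongly they are translated. Most of that control acts on translation, which an mRNA level does not show. In the kidney these mRNAs are made by every cell type, and ribosomal protein genes such as Rplp0 and Rpl13a are often used as reference genes in mouse tissue.

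The pattern also took in 4 paralogs, Rpl22l1, Rpl39l, Rpl7l1 and Rps27l, with 7 clones, of which Rpl7l1 belongs to ribosome assembly and not to the finished subunit. Ribosomal protein genes have many near-identical pseudogene copies, and a filter cannot tell such copies from the gene. Of 16 proximal tubule marker genes 4 had clones on the filters (Cubn, Gatm, Lrp2 and Miox), and these 5 clones had a median brightness percentile of 88.5 within their set. Such a percentile ranks the signal of spots and does not give an amount of RNA. No clone with 1 symbol stood for any of the 8 markers of T and NK cells on the list used. The labels of 1 male of 714 days conflict, since its description is that of a different mouse, and its title, sex and age fields were followed.

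Promoters were looked at because these genes are known for a shared start, and RefSeq windows (build GRCm38.p6, 250 bases before to 50 after the annotated start) were found for 52 of the 66 genes. Pyrimidine motifs were searched on the sense strand of the whole window, where they can overlap each other. The motif CTTTTC was in 23.1% of the 52 genes against 12.9% of all 27025 genes in the table, and CTCTTTC was in 21.2% against 4.60%. For CCTTTC the shares were 36.5% against 14.4%, and for CTTTCC they were 40.4% against 16.0%. At least 1 of them lay within 20 bases of an annotated start in 16 of the 52 genes (30.8%), against 5.51% of all genes. A run of 5 or more C or T across the annotated start was in 17 of the 52 (32.7%), against 11.8%. Whether the annotated starts are those used in kidney was not tested, so a stretch without such a run does not show that the mRNA lacks one. The ETS-type motif CCGGAAG, on either strand within the whole window, was in 25 of 52 (48.1%) against 9.93% of all genes. GGGCGG, a GC box, was in 61.5% against 38.2%, and this motif was searched on both strands too. AAGATGGC was in 7.69% against 3.19% and TATAAA, the TATA box, in 9.62% against 15.7%, likewise on both strands. These matches describe letters in a window and not sites. The stretches below run from 60 bases before the annotated start, which is base 61, for the genes whose clones recur in the comparisons, and capitals mark matches to these 8 motifs. Rplp0 lies at chr5:115559407-115559481, Rpl4 at chr9:64173327-64173401, Rpl5 at chr5:107900468-107900542, Rpl10 at chrX:74270756-74270830, Rpl38 at chr11:114668520-114668594 and Rplp2 at chr7:141447591-141447665 on the plus strand, and Rpl35 at chr2:39005117-39005191 and Rps4x at chrX:102189377-102189451 on the minus strand.
Rplp0: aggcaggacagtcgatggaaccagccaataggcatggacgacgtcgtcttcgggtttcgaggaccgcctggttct
Rpl4: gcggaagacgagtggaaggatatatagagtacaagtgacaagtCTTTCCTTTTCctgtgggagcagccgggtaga
Rpl5: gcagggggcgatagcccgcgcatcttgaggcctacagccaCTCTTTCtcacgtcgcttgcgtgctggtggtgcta
Rpl10: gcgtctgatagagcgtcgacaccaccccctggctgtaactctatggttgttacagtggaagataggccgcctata
Rpl38: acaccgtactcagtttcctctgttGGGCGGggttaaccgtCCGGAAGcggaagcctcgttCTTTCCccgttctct
Rplp2: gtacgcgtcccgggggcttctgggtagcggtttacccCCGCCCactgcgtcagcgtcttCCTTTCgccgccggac
Rpl35: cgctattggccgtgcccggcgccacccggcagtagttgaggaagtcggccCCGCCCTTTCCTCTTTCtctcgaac
Rps4x: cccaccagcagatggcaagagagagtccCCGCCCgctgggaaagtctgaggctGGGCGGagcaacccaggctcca
Rpl38, Rplp2 and Rpl35 held a pyrimidine motif at or across the annotated start, inside unbroken C and T runs of 10, 10 and 18 bases. In Rpl4 and Rpl5 such a motif lay before the annotated start, in Rps4x the capitals mark 2 GC boxes, and in Rplp0 and Rpl10 none of the 8 motifs was in the stretch.

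All values below are scores, in which 0 is the mean of an array and 1 is its SD, so the unit is the array SD. The scale before that step, log or linear, is not given in the sources used here, so a difference cannot be read as a fold, and no amount of RNA is compared between clones. Over the 16896 clones of both sets, the ribosomal protein clones lay between the brightness percentiles 13.0 and 98.3 of their set, with a median of 58.0. Only 6 lay below the percentile 25. The clones varied less among mice of a group than clones in general. Their median SD within the 8 groups of sex and age was 0.140, against 0.175 over all clones, and it was lower in each of the 4 brightness classes of 25% (0.174 against 0.206, 0.145 against 0.172, 0.132 against 0.163, and 0.148 against 0.163, from dimmest to brightest).

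Mice of 17 to 44 days, which run from before weaning to early adulthood, were first compared with young adults of 169 to 194 days. The call rule was a Benjamini-Hochberg adjusted p under 0.05 in limma, taken over all 16896 clones, and it called 0 of the 146 ribosomal protein clones and 0% of all clones. Of the 146, 105 had a higher mean in the young adults and 41 a lower one, with a median difference of 0.0340 array SDs, against 51% higher and a median of 0.00220 over all clones. Without adjustment, 9 clones had a p under 0.05, all higher, or 6.16% of the members. The same rule took 5.08% of all clones in either direction with 2.44% higher and 2.65% lower. By subunit, 72 of 95 large subunit clones and 33 of 51 small subunit clones were on the higher side. The 95% interval of the difference lay within 0.3 array SDs of 0 for 138 of the 146 clones and within 0.2 for 93. Over all 16896 clones these counts were 13870 and 6358. Because kidneys were measured whole, fewer cells of a kind and less RNA per cell cannot be told apart.

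**Figure D1:**
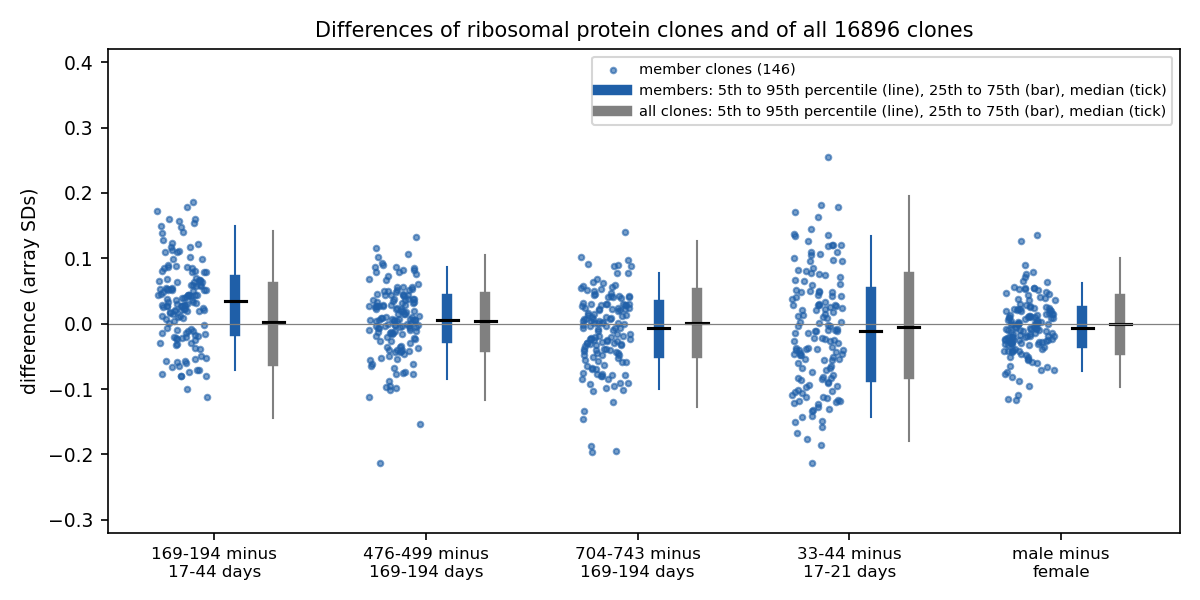
Differences between groups, in array SDs, for each of the 146 ribosomal protein clones (points) in 5 comparisons, with percentiles for the members (blue) and for all 16896 clones (grey). In the comparison of 169 to 194 with 17 to 44 days the members' median was 0.0340 against 0.00220 for all clones, and in the other 4 comparisons both medians lay within 0.0118 of 0.

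The clone of smallest p was spot 15716 of Rpl10, an X-linked large subunit protein. Its lowest, median and highest levels were 1.41, 1.498 and 1.72 in the 10 mice of 17 to 44 days and 1.33, 1.72 and 1.90 in the 10 mice of 169 to 194 days. The young adults were mostly higher, and 1 young adult male lay below every younger mouse, so the groups overlapped. The difference was 0.150 ± 0.0619 (SE, 95% interval 0.0250 to 0.276, limma adjusted p = 0.933). Differences are given ± SE from here on, unless SD is named. The other 3 Rpl10 clones differed by 0.128, 0.117 and 0.0531.

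Spot 15738 of Rps4x, an X-linked small subunit protein, had levels of 0.798, 1.08 and 1.34 at 17 to 44 days and 1.07, 1.28 and 1.48 at 169 to 194 days. The difference was 0.161 ± 0.0682 (adjusted p = 0.933, limma). The younger range reached lower and the older one higher, with a shared middle. The other Rps4x clones did not share 1 direction: spot 15694 differed by 0.0886 and spot 14131 by -0.0502. The Rpl10 clone 15716 and the Rps4x clone 15738 are numbered 22 apart, and over the 40 mice they gave r = 0.767 with each other after group and round means were removed.

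Spot 16000 of Rps21, a small subunit protein, had 0.597, 0.826 and 0.991 against 0.762, 0.947 and 1.09, a difference of 0.121 ± 0.0518. Spot 6405 of Rpl23, a large subunit protein, had 0.438, 0.829 and 1.01 against 0.709, 0.962 and 1.28, a difference of 0.178 ± 0.0778. In both, the younger mice reached lower and the young adults higher with overlap between, and neither passed the adjusted threshold (adjusted p = 0.933 for both, limma). Of the other 2 Rps21 clones 1 was higher (0.0120) and 1 lower (-0.0100), and the other 2 Rpl23 clones were both lower (-0.0771 and -0.0167).

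On the lower side, spot 9453 of Rps24, a small subunit protein mutated in some families with Diamond-Blackfan anaemia, had levels of -0.399, -0.231 and -0.0560 at 17 to 44 days and -0.456, -0.286 and -0.226 at 169 to 194 days. Its difference was -0.0993 ± 0.0601 (adjusted p = 0.95, limma), and the ranges overlapped, with the younger mice reaching higher. The other named clones on this side were Rpl31 spot 10592 (-0.0796), Rpl29 spot 8361 (-0.112) and Rpl4 spot 10593 (-0.0795), which did not pass either. The Rpl31 and Rpl4 spots have neighbouring numbers and gave r = 0.836 with each other over the 40 mice, after group and round means were removed. Both gave differences just above 0 (0.00780 and 0.00804) once a running median of neighbouring spot numbers had been taken off, a setting chosen after seeing the data. Of the 8 named clones 4 moved by over 1.5 times under some setting. Without 7 mice with an array standing apart from the rest, Rpl23 spot 6405 gave 0.112, Rpl31 -0.0185, Rpl29 -0.0623 and Rpl4 0.00366. Rpl29 gave -0.0628 without the male of 43 days and -0.225 without the 5 mice of 17 to 21 days, and without the male of 40 days Rpl31 gave -0.0367 and Rpl4 -0.0459.

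**Figure D2:**
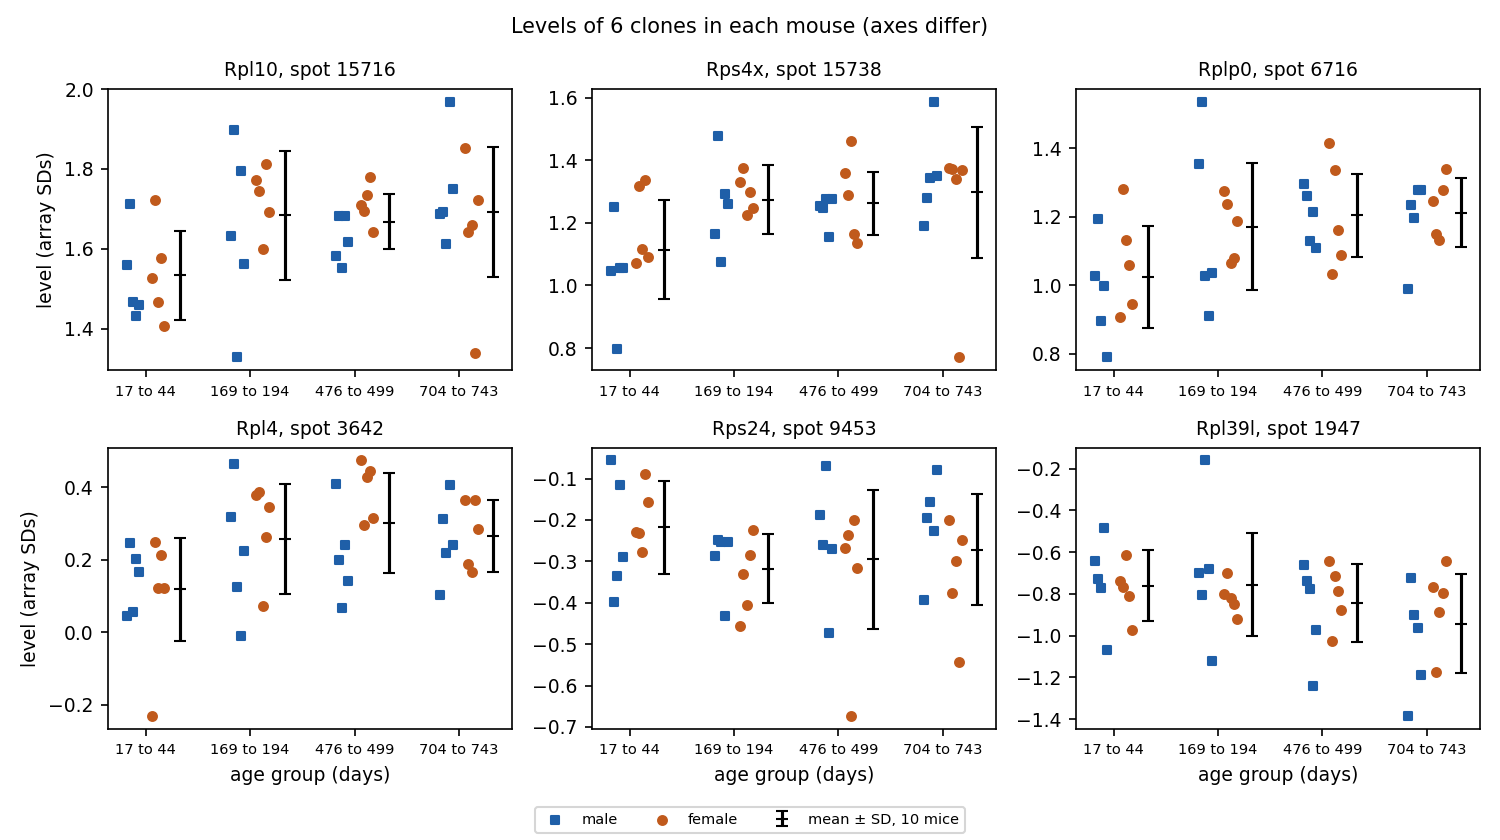
Levels in array SDs of Rpl10 spot 15716, Rps4x spot 15738, Rplp0 spot 6716, Rpl4 spot 3642, Rps24 spot 9453 and Rpl39l spot 1947 in each of the 40 mice, by age group in days, with males as squares, females as circles and bars for the mean ± SD of 10 mice. For the first 4 of these clones the youngest group had the lowest mean, for Rps24 the highest, and the ranges of the age groups overlapped in all 6 panels.

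By role, the acidic stalk and Rpsa gave 11 of 15 clones higher at 169 to 194 days, with a median of 0.0588. That share is near the 71.9% of all 146 members. Rpsa is the laminin receptor that is also a small subunit protein. The stalk is the arm of the large subunit that recruits elongation factors, with Rplp0 as its base and Rplp1 and Rplp2 as its tips. All 4 Rplp0 clones were higher, by 0.148, 0.0800, 0.0588 and 0.00805. Spot 6716 had levels of 0.789, 1.01 and 1.28 at 17 to 44 days and 0.911, 1.13 and 1.54 at 169 to 194 days, with an overlap over much of both ranges (adjusted p = 0.933, limma). For Rplp1, 2 of 3 clones were higher, and the 2 Rplp2 clones differed by 0.0985 and -0.0188.

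All 6 clones of the 5S ribonucleoprotein proteins Rpl5 and Rpl11 were higher, by 0.0219 to 0.111, and none passed. These proteins carry 5S rRNA into the large subunit and can also bind Mdm2, the ubiquitin ligase of p53. The Rpl5 spots 6937, 6981, 7025 and 7069 lie on set A, each numbered 44 after the one before. With each other they gave r of 0.412 to 0.829 after group and round means were removed. Those Rpl5 clones are therefore not separate observations. Rps6, the substrate of the S6 kinases, was close to 0 in its 4 clones (2 higher, 2 lower, -0.0332 to 0.0268). Rps19, the gene most often mutated in Diamond-Blackfan anaemia, differed by 0.0423 ± 0.0856. Over the 29 clones of genes linked to that anaemia 20 were higher, a share near the 71.9% of all 146 members. Rpl13a differed by 0.0785 ± 0.0678. Of the 19 clones of ribosomal protein genes commonly used as references, 17 were higher, with a median of 0.0785. The 19 include 4 clones of Rplp0 and 6 of Rpl4, so the genes are not counted equally.

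Among the paralogs, all 3 Rpl7l1 clones were lower at 169 to 194 days, by -0.0712 to -0.0534. Rpl39l differed by 0.00424 and Rps27l by -0.0805, and Rpl22l1 by 0.0857 and -0.0141 in its 2 clones. Of the 7 paralog clones, 2 were higher. Of the 22 genes with 3 or more clones, 7 had every clone higher (Rpl10, Rpl35, Rpl41, Rpl5, Rpl6, Rplp0 and Rps3a1) and 1 had every clone lower (Rpl7l1). Several of these genes have clones numbered 44 apart on 1 set, such as Rpl6 spots 16206 and 16250. These gave r = 0.813 after group and round means were removed, so clones of 1 gene are not separate observations. When the clones of a gene were averaged, 50 of 66 genes were higher.

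The mean deviation of the 146 clones from their own means gave 1 value for each mouse. At 17 to 44 days its lowest, median and highest values were -0.0673, -0.0200 and 0.00415, and 9 of 10 mice lay below 0. At 169 to 194 days they were -0.0230, 0.00172 and 0.0795. At 476 to 499 days they were -0.0436, 0.0218 and 0.0832, and at 704 to 743 days -0.110, 0.0101 and 0.0476. All 4 ranges overlapped, and the SD was 0.0221 at 17 to 44 days and 0.0489 at 704 to 743 days (n = 10 each). The difference between 169 to 194 and 17 to 44 days was 0.0342 over both sexes, 0.0354 in males and 0.0331 in females. By round it was 0.0596, 0.0957, -0.00805, 0.00329 and 0.0206, above 0 in 4 of 5, with most of it in the first 2 rounds. It was above 0 on both filters, at 0.0426 on set A and 0.0300 on set B.

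**Figure D3:**
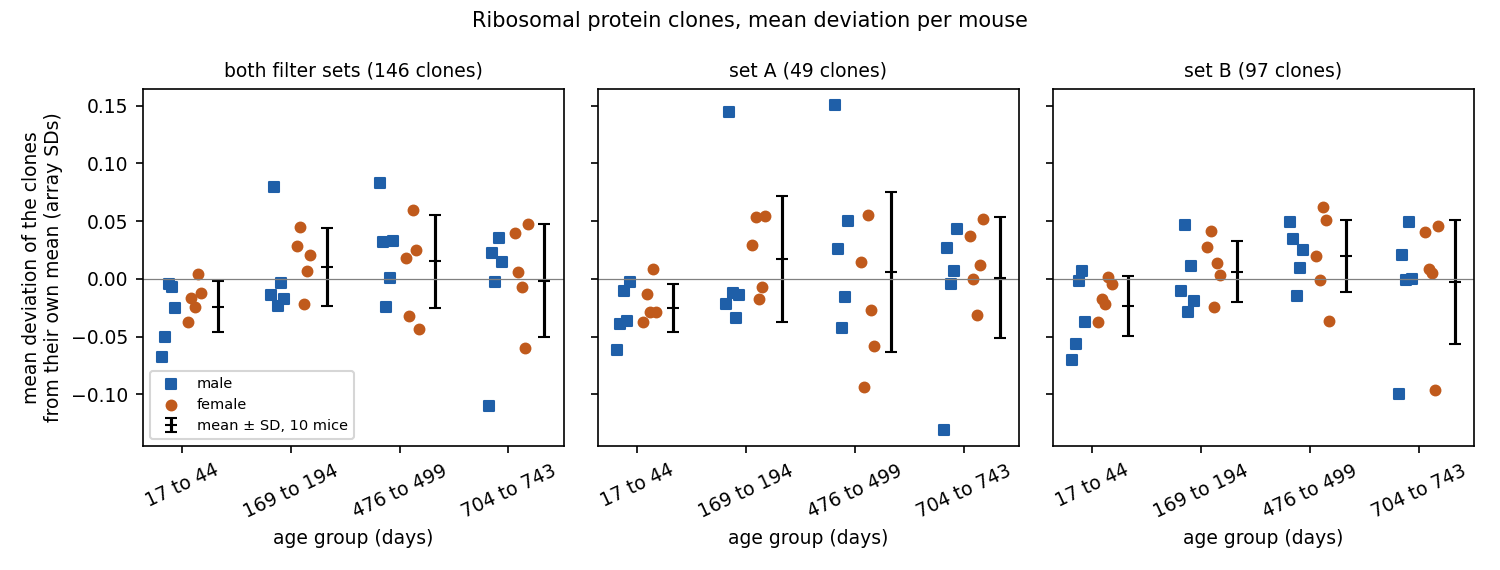
Mean deviation of the ribosomal protein clones from their own means, in array SDs, for each mouse on both filter sets, on set A and on set B, by age group in days. Squares are males, circles females, and bars the mean ± SD of 10 mice, and 9 of 10 mice of 17 to 44 days lie below 0 in the first panel.

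Marker lists of other cell types and states were read beside this difference. The 5 proximal tubule clones were all higher at 169 to 194 days, by 0.0267 to 0.0818, and their mean deviation was -0.0547 ± 0.0589 at 17 to 44 and -0.00245 ± 0.0314 at 169 to 194 days (SD, n = 10 each). Of 15 clones of 11 proliferation genes, 10 were higher. Of these, 3 had an unadjusted limma p under 0.05, against 2.44% of all clones on that side. The 14 erythroid clones, of 3 genes, had 6 higher and 8 lower, and 1 of these genes, Slc4a1, is also on the collecting duct list. Only Calb1 (4 clones) of the loop and distal tubule list, 2 collecting duct, 3 podocyte, 3 endothelial, 6 fibroblast, 2 B cell and 5 myeloid marker genes had clones, with no call in any of them. Of their clones, 1 of 4, 1 of 2, 1 of 3, 3 of 3, 6 of 11, 1 of 2 and 3 of 5 were higher, in that order. On the lower side 1 podocyte and 1 B cell clone had an unadjusted limma p under 0.05, against 2.65% of all clones. The part of these marker genes in the difference of the ribosomal protein clones was not tested. Without the 7 mice that had an array standing apart from the rest, 98 of the 146 clones were higher, with a median of 0.0267.

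The next 2 comparisons asked about later adult life, and they share the mice of 169 to 194 days with the first. Between 476 to 499 and 169 to 194 days 0 of 146 clones were called (0% of all clones), and 0 reached an unadjusted p under 0.05, against 1.23% of all clones (limma). The members split into 84 higher and 62 lower, with a median of 0.00634 against 0.00361 over all clones. The named clones were Rpl4 spot 10593 (0.115 ± 0.0586), Rpl31 spot 10592 (0.0897 ± 0.0496), Rps24 spot 9497 (0.0866 ± 0.0585) and Rpl22l1 spot 12411 (0.133 ± 0.0911) on the higher side, each with a limma adjusted p of 1. On the lower side they were Rpl41 spot 3565 (-0.0969 ± 0.0608), Rpsa spot 8405 (-0.213 ± 0.143), Rps15a spot 7333 (-0.0949 ± 0.0687) and Rpl30 spot 3418 (-0.153 ± 0.116). The Rpsa clone had levels of 1.13, 1.59 and 2.06 at 169 to 194 days and 0.843, 1.27 and 2.19 at 476 to 499 days. It was among the most variable clones, and the older range held the younger one. The interval lay within 0.3 array SDs of 0 for 140 clones and within 0.2 for 102, against 14719 and 8222 of all 16896 clones. Of the 8 named clones 7 moved by over 1.5 times under some setting. With 1 mouse left out, Rpl30 gave -0.0312 without the male of 193 days, Rps24 0.0449 without the male of 180 days and Rps15a -0.0441 without the fifth-round female of 180 days. Rpl22l1 gave 0.0730 without that female, 0.0624 without the male of 476 days and 0.0883 without the female of 498 days. Without the 7 mice Rpl4 gave 0.0555, Rps24 0.0552, Rpl22l1 0.0548, Rpsa -0.135, Rps15a -0.0342 and Rpl30 -0.267, and with neighbouring spots taken off Rpl31 gave 0.0486 and Rps15a -0.0244.

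Between 704 to 743 and 169 to 194 days 0 of 146 clones were called (0% of all clones), and 1 had an unadjusted p under 0.05, lower at 704 to 743 days, or 0.685% of the members (limma). Among all clones the share was 2.36%, with 1.09% higher and 1.26% lower. There were 68 clones higher and 78 lower, with a median of -0.00633 against 0.000988. The 1 clone was spot 8331 of Rpl23a, a protein at the tunnel exit, with levels of -0.190, 0 and 0.189 at 169 to 194 days and -0.386, -0.127 and 0.0660 at 704 to 743 days. The older mice reached lower, the ranges overlapped, and the difference was -0.134 ± 0.0622 (adjusted p = 1). The other 2 Rpl23a clones differed by -0.0841 and 0.00373.

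Rpl39l spot 1947, the paralog of a small protein lining the exit tunnel, followed with -0.187 ± 0.0940. This clone is dim (brightness percentile 18.3), and 1 male of 169 to 194 days lay far above the rest of its group. Rpl27a spot 201 (-0.0990 ± 0.0634) and Rps13 spot 11579 (-0.0955 ± 0.0630) completed the lower side. The named clones on the higher side were Rps9 spot 4590 (0.141 ± 0.0810), Rplp2 spot 14480 (0.0904 ± 0.0641), Rpl5 spot 7025 (0.0890 ± 0.0660) and Rplp0 spot 6672 (0.102 ± 0.0774). The Rplp2 clone was at -0.0318 without the 7 mice with an array standing apart and at 0.00386 with array weights. Rps9 belongs to the decoding side of the small subunit, and 1 old female at 0.713 stood above the other 9 old mice. The interval lay within 0.3 array SDs of 0 for 139 clones and within 0.2 for 102, against 14289 and 7498 of all 16896 clones. All 8 named clones moved by over 1.5 times under some setting. With 1 mouse left out, Rps9 gave 0.0725 without that old female, of 704 days, Rplp2 0.0373 without the male of 174 days, and Rplp0 0.0613 without the third-round female of 194 days. Rps13 gave -0.0401 without the female of 733 days, Rpl27a -0.0526 without the male of 743 days and Rpl39l -0.120 without the male of 194 days. With neighbouring spots taken off, Rpl23a gave -0.0888, Rpl5 0.0568 and Rplp0 0.0379, and without the 7 mice Rpl39l gave -0.314 and Rpl27a -0.0386.

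A straight line in age over all 40 mice, with sex as a second term, called 0 of 146 clones (0% of all clones, or 0.0118% with the round as a term). Without adjustment 12 of 146 had a p under 0.05, or 8.22% against 5.2% of all clones (limma). Their slopes were above 0 in 9 and below 0 in 3, and over all clones 3.04% were above and 2.16% below. The smallest p were those of 2 Rplp0 clones, spot 6716 at 0.0864 ± 0.0329 array SDs per year (limma adjusted p = 0.937) and spot 6672 at 0.0880 ± 0.0357. Spot 6716 had age group means of 1.02 ± 0.149, 1.17 ± 0.185, 1.20 ± 0.121 and 1.21 ± 0.101 (SD, n = 10), so most of its difference lay between the first 2 groups. Rps21 spot 16000 (0.0639 ± 0.0259) and Rpl10 spot 15672 (0.0801 ± 0.0327) came next. On the lower side the smallest p were those of Rpl39l (-0.102 ± 0.0443), Rps27l spot 6161 (-0.0805 ± 0.0366), Rpl7l1 spot 8563 (-0.0666 ± 0.0310) and Rpl41 spot 3565 (-0.0441 ± 0.0280). Rps27l is a paralog of Rps27 known as a p53 target, and its clone lay at the brightness percentile 13.7. Thus the 3 clones of unadjusted p under 0.05 with a negative slope were all paralogs, while the other 4 paralog clones were closer to 0 or above it. The slopes of both Rplp0 clones without the 7 mice were 0.0520 and 0.0531, that of Rpl7l1 -0.0389 and that of Rpl39l -0.154 per year. With neighbouring spots taken off they were 0.0489 and 0.0580 for Rplp0 and 0.0507 for Rpl10. The median slope was 0.00642 per year over the members and 0.000255 over all clones, with 86 of 146 above 0.

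Males and females were compared over all ages. No ribosomal protein clone was called, against 18 of all clones (0.107%, or 0.112% with the round as a term). Without adjustment 6 had a p under 0.05, or 4.11% against 4.48% (limma). Of these, 1 was higher in males and 5 were lower, and over all clones 1.76% were higher and 2.72% lower. Spot 7069 of Rpl5 had levels of 0.0640, 0.407 and 0.589 in the 20 females and 0.223, 0.520 and 0.892 in the 20 males. Males were higher on the whole, with wide overlap, by 0.135 ± 0.0458 (95% interval 0.0428 to 0.228, limma adjusted p = 0.982). The 5 Rpl5 clones ranged from -0.0253 to 0.135, with 4 higher in males. Rpl29 spot 8144 (0.0896 ± 0.0504), Rpl30 spot 3418 (0.127 ± 0.0820) and Rps20 spot 7526 (0.0756 ± 0.0559) were the other named clones on that side.

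Spot 14467 of Rps23, a protein of the decoding centre, was lower in males, with 0.0345, 0.299 and 0.537 in males and 0.248, 0.424 and 0.770 in females. The male range reached lower and the female range higher, and the difference was -0.117 ± 0.0402 (adjusted p = 0.982, limma). Rpl7 spot 14403 (-0.0957 ± 0.0356), Rpl23 spot 1170 (-0.115 ± 0.0452) and Rplp2 spot 14480 (-0.109 ± 0.0453) followed. With neighbouring spots taken off, the 4 lower clones gave -0.0424 (Rps23), -0.0229 (Rpl7), -0.0506 (Rpl23) and -0.0350 (Rplp2), and the 4 higher ones 0.0766 (Rpl5), 0.0439 (Rpl29), 0.0825 (Rpl30) and 0.0443 (Rps20), so all 8 were closer to 0 by over 1.5 times. Rplp2 gave -0.0406 without the 7 mice, and without the male of 193 days Rpl30 gave 0.0661. All 5 Rpl7 clones and all 3 Rpl35 clones were lower in males, Rpl35 by -0.0884 to -0.0356. On set B, Rpl7 spots 14403, 14447 and 14491 and Rpl35 spots 14439 and 14483 lie in 1 run of numbers. Rps23 spot 14467 and Rplp2 spot 14480 lie in the same run. After group and round means were removed, Rps23 spot 14467 and Rpl35 spot 14483 gave r = 0.789. Clones of this run are therefore not separate observations. The 4 X-linked genes Rps4x, Rpl10, Rpl36a and Rpl39 had 8 of 9 clones lower in males, against 82 of all 146 members. Their median was -0.0245, and none of these had an unadjusted p under 0.05. The exception was the single Rpl39 clone (0.0657 ± 0.102). Rpl10 spots 15672, 15716 and 15760 and Rps4x spots 15694 and 15738 lie in 1 run of numbers on set B. After group and round means were removed, 15672 and 15694 gave r = 0.779 and 15716 and 15738 r = 0.767. These clones are therefore not separate observations. Over the 146 clones 64 were higher in males, with a median of -0.00621 against -0.00117 over all clones, and the median was above 0 (0.00230) once a running median of neighbouring spot numbers had been taken off.

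Whether the sex difference varied with age was asked with an F test, which called 0 of 146 clones (0% of all clones), with 3 at an unadjusted p under 0.05 (2.05% against 3.23%, limma). The 4 smallest p were those of Rps14 spot 10682, Rpl31 spot 10218, Rpl34 spot 14376 and Rpl7l1 spot 8563, each with an adjusted p of 1. For Rpl34, a large subunit protein, males minus females was -0.00180, 0.0566, 0.0852 and -0.222 from the youngest to the oldest group. The oldest males had a mean of -0.287 ± 0.0668 and the oldest females -0.0651 ± 0.0562 (SD, n = 5 each). Rps14 and Rpl31 also had their lowest difference at 704 to 743 days (-0.262 and -0.375), and Rpl7l1 had its highest there (0.198).

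The youngest group held 5 mice of 17 to 21 days and 5 of 33 to 44 days, on either side of the usual weaning age. Between the 2 classes 0 of 146 clones were called (0% of all clones), and 2 had an unadjusted p under 0.05 (1.37% against 3.61%, limma). Of these, 1 was higher at 33 to 44 days and 1 lower, against 2.05% and 1.56% of all clones. Rpl29 spot 8361 had -0.185, -0.0431, -0.0343, 0.0193 and 0.0215 in the 5 mice of 17 to 21 days and 0.0538, 0.134, 0.167, 0.230 and 0.547 in the 5 of 33 to 44 days. The classes did not overlap, and the difference was 0.254 ± 0.101 (limma adjusted p = 1). Rpl10a spot 14879 had 1.62, 1.67, 1.70, 1.72 and 1.82 in the younger class and 1.37, 1.41, 1.49, 1.56 and 1.62 in the older. These classes touched at 1.62, and the difference was -0.214 ± 0.0936. Rpl38 spot 11691 (0.163), Rps4x spot 15694 (0.181) and Rpl15 spot 6101 (0.178) were the other named higher clones. Rps23 spot 14467 (-0.134), Rps6 spot 10548 (-0.149) and Rpl7 spot 14447 (-0.158) were the lower ones.

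Several of these values rested on few mice or on the setting. With neighbouring spots taken off, Rpl29 gave 0.0800, Rpl38 -0.0221, Rpl10a -0.123, Rps23 -0.00935 and Rpl7 -0.00936. Without the 7 mice Rpl7 gave -0.00846, Rpl15 0.0313 and Rpl38 0.0560. Rpl15 gave 0.102 without the first-round female of 17 days and 0.115 without the male of 43 days, and without that male Rpl7 gave -0.102. Rpl38 gave 0.0916 without the male of 40 days, and Rps4x 0.112 without the female of 33 days. In the third round both mice of this age group were of the younger class and in the fifth both were of the older, so round and class partly coincide, and with the round as a term Rps4x gave 0.117. The 95% intervals lay within 0.2 array SDs of 0 for 22 of the 146 clones and within 0.3 for 101, against 7665 of the 16896 clones within 0.3. The 14 erythroid marker clones stood for 3 of 7 listed genes (Alas2, Hba-a1 and Slc4a1), so clones of 1 gene are counted more than once. Slc4a1 is also on the collecting duct list. Of the 14 clones 11 were lower at 33 to 44 days, with a median of -0.157. Of the lower ones, 4 had an unadjusted limma p under 0.05, against 1.56% of all clones on that side. All 4 Calb1 clones were lower too, with a median of -0.0840. Their part in the differences of the ribosomal protein clones was not tested.

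Genes with several clones allowed a check of each gene against itself. Correlations over the 40 mice were taken after the group and round means were removed, and they are descriptions, since clones of 1 filter share its array. The 92 pairs of clones of 1 gene on 1 filter set had a median r of 0.249 and a range of -0.434 to 0.866. The 5740 pairs of different ribosomal protein genes on 1 set had a median of 0.0685. Over all pairs of clones the medians were -0.00802 on set A and -0.0131 on set B. The 52 pairs of 1 gene across the sets, which share the mouse but not the filter, had a median of 0.178 and ranged from -0.167 to 0.514, against 0.0708 for different ribosomal protein genes across sets.

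These correlations varied with the distance between spot numbers, though not as a steady fall. Over all clones, pairs with adjacent numbers had a median r of 0.561, pairs 22 apart 0.581 and pairs 44 apart 0.483. The median was 0.0472 for pairs 200 apart, 0.271 for pairs 500 apart and 0.164 for pairs 1000 apart. Many clones of 1 ribosomal protein gene were numbered exactly 44 apart, and these 22 pairs had a median r of 0.700, with 17 above 0.5. The 62 pairs on 1 set that were not spaced by 44 or its next 2 multiples had a median of 0.124, with 5 above 0.5. Rplp1 spots 16179 and 16223, 44 apart, gave the highest value (0.866). The 3 Rps21 clones gave -0.0570 to -0.00546, and the 6 pairs of Rps6 clones -0.293 to 0.247. The highest pair of different genes was Rplp2 spot 15736 with Rps4x spot 15738, at 0.878 and with nearly adjacent numbers. The next, Rpl23a spot 14747 with Rplp1 spot 16223 at 0.868, had numbers far apart. Whether the numbers give the place on the filter is not stated in the sources used here, and the part of position in these correlations was not tested.

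**Figure D4:**
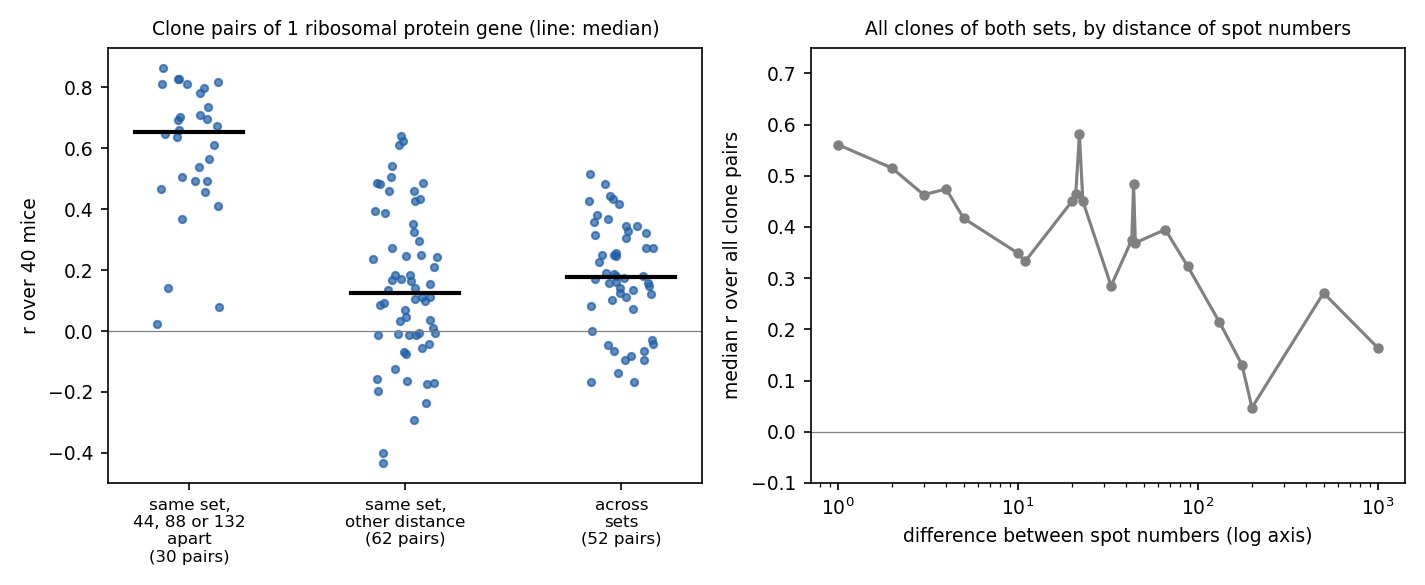
Correlation r over 40 mice, after group and round means were removed, for pairs of clones of 1 ribosomal protein gene (left, points, with lines at the medians) and the median r over all clone pairs by the difference of their spot numbers (right, log axis). Same-set pairs 44 or 1 of its next 2 multiples apart had a median of 0.654, other same-set pairs 0.124 and pairs across sets 0.178.

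The mean deviation of the ribosomal protein clones on set A and that on set B of the same mice had a Pearson r of 0.639 and a Spearman rho of 0.654 over 40 mice, given as a description of 2 filters that share the RNA. Without the 2 mice farthest from the median on set A, r was 0.620.

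The rounds were the one comparison in which ribosomal protein clones were called. An F test over the 5 rounds called 24 of 146 ribosomal protein clones (16.4%) against 25.8% of all clones (limma, adjusted p under 0.05), so the share of members was below the background. Without adjustment 41 clones had a p under 0.05, or 28.1% against 38.5%. Spot 9632 of Rpl39, a small protein of the exit tunnel, had means of 0.0224, -0.130, 0.276, -0.249 and 0.352 in rounds 1 to 5 (n = 8 each, SD within a round 0.127 to 0.415, adjusted p = 5.46e-04). Rpl38 spot 8968, a large subunit protein, had 0.154, 0.0519, 0.0956, 0.169 and 0.414 (adjusted p = 0.00125). Rpl8 spot 9892 had 1.04, 1.04, 1.22, 1.03 and 1.32, and Rps15 spot 10973 had 0.660, 0.685, 0.958, 0.690 and 1.02. Rounds 3 and 5 were the highest for Rpl39, Rps15, Rpl8 and Rpsa spot 8405 (1.32, 1.29, 1.56, 1.25 and 1.77), while Rpl38 was highest in the fifth, as was Rps9 spot 4590 (-0.209, -0.156, -0.0752, 0.0368 and 0.0994).

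Opposite patterns were also found. Rps4x spot 14131 and Rpl22l1 spot 12411 were lowest in the fifth round, and the 2 called Rps15 clones differed, since spot 4229 was highest in the first. The remaining calls were Rpl41 spot 1810, Rpl32 spot 7298, Rps3a1 spot 6290, Rpl35 spot 14483, Rps14 spot 12573, Rps20 spots 7963 and 7526, Rpl26 spot 3484, Rps26 spot 14902, Rpl37 spot 9758, Rps4x spot 15694, Rpl23 spot 11405, Rpl7l1 spot 8563, Rps18 spot 7836 and Rpl8 spot 5283, with adjusted p from 0.0198 to 0.0477. Rps15, Rps20, Rps4x and Rpl8 had 2 called clones each. In the fifth round Rps20 spot 7963 was lowest (-0.519) and spot 7526 highest (-0.275). There Rps4x spot 14131 was lowest (0.605) and spot 15694 highest (0.714). Both Rpl8 clones were highest in that round (1.32 and 0.284). Without the 7 mice that had an array standing apart, 7 clones were called (4.79%, against 11.9% of all clones), and with neighbouring spots taken off 35 (24% against 35.1%). With 1 mouse left out the count ran from 14 to 28, or 9.59% to 19.2%, against 21.1% to 28.6% of all clones. It was 14 or 15 without the first-round male of 186 days or, of the fifth round, without the male of 40 days, the female of 180 days or the male of 733 days. Each round held 1 male and 1 female of each of the 4 age groups, so the rounds do not coincide with sex or with these groups, though they partly do with the classes of 17 to 21 and 33 to 44 days.

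**Figure D5:**
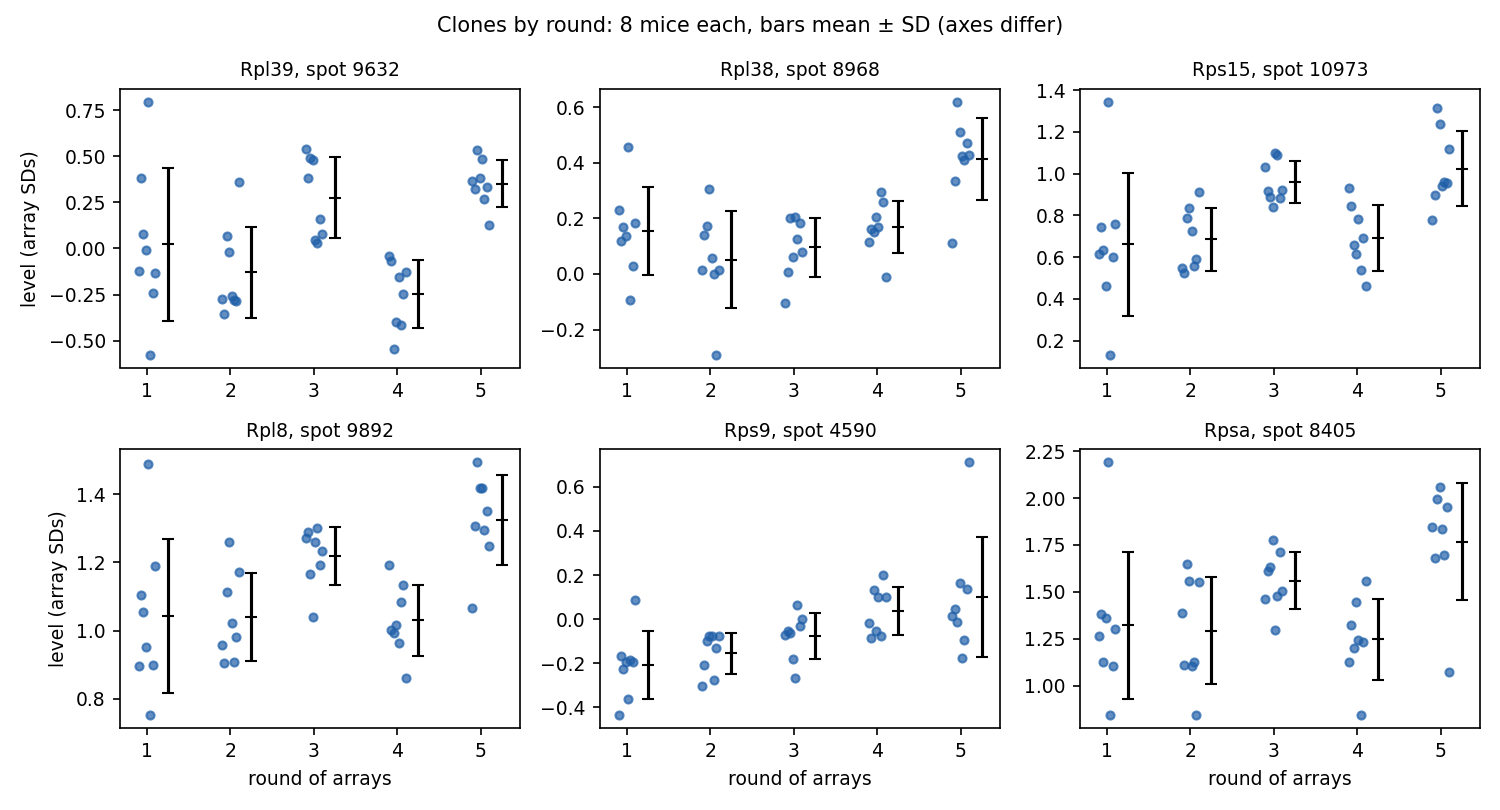
Levels in array SDs of the 6 ribosomal protein clones of smallest p in the comparison of rounds, for 8 mice in each of the 5 rounds (points), with bars for mean ± SD. Rpl39, Rps15, Rpl8 and Rpsa are highest in rounds 3 and 5.

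Genes that act with the ribosome were read from lists. Ribosome biogenesis, the making of subunits in the nucleolus, had 37 of 51 listed genes on the filters, with 59 clones and 0 calls in each age and sex comparison. From 17 to 44 to 169 to 194 days 32 of the 59 were higher and 27 lower, with a median of 0.0218. The smallest p were those of Imp3, part of the small subunit processome (-0.163 ± 0.0573), and Utp4 (0.130 ± 0.0596), both with an adjusted p of 0.933 (limma). Other mRNAs that start with an oligopyrimidine tract, mainly translation factors, had 16 of 25 genes with 36 clones, of which 26 were higher, with a median of 0.0414 and 0 calls. Among them were Eef1b2 (0.101 ± 0.0582) and Fau spot 5657 (0.184 ± 0.103). Of the 4 Fau clones 2 were higher and 2 lower, from -0.0389 to 0.184, with a median of 0.00814. Fau encodes the small subunit protein S30 fused to a ubiquitin-like domain, under a symbol that the name pattern misses.

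The 19 clones of 14 mTOR and S6 kinase pathway genes had 12 higher and a median of 0.0109. The mitochondrial ribosome, a separate machine that translates mitochondrial mRNAs, had 55 clones of 49 genes, 29 higher and 26 lower, with a median of 0.0116. Its lowest p was that of Mrpl36 spot 14025 (0.175 ± 0.0596, adjusted p = 0.933), and the same clone had a slope of 0.107 ± 0.0290 per year (adjusted p = 0.821, limma). None of these lists held a call in the age or sex comparisons.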

How the data were processed

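The deposited values are scores: per the values, the authors' tables hold an SD of 1 and a mean of 0 in each of 80 columns, and no columns were left unused (0). No source used here gives the image reading, background correction or earlier scale. Sex and age came from the labels. Each set of 8448 clones was quantile normalized and fitted with limma 3.58.1 (R 4.3.3, lmFit and eBayes) on its own. The age slope used years and sex, and the other comparisons used means of each sex and age group. Benjamini-Hochberg adjustment ran over all clones, and fits were tested on simulated data. Each mouse was 1 replicate, and precision is limited by the number of arrays. Per comparison, called clones and up to 4 clones of smallest p in each direction were named, with stalk, 5S, reference and paralog genes and genes of 3 or more clones. Of the 146 members, 146 gene identifiers matched the RefSeq table. Members and lists were chosen with earlier results of these data known. The mice left out for an array standing apart had a mean correlation over 3 scaled median absolute deviations below the median. They were the first-round male of 43 days and the fourth-round male of 180 days and female of 733 days. Of the fifth round they were the males of 40 and 174 days and the females of 180 and 704 days. Mean correlations between arrays ran from 0.888 to 0.965 on set A and 0.915 to 0.975 on set B.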

Additional observations from a re-analysis of the deposited data

Results flagged for a closer look

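Of 194 groups of 4 to 10 values looked at, 21 (10.8%) had 1 mouse far from the rest of its group, where chance flags about 5% of groups. The groups share mice and arrays, so they are not independent. The females of 733 and 704 days (4 and 3 flags) and the male of 40 days (3) were among the 7 mice with an array standing apart. So were the males of 180 days (2) and 174 days (1) and the fifth-round female of 180 days (1). The males of 193 and 743 days (2 each) and the other flagged mice were not. The mean deviation of the members on set A was 0.145 in the male of 193 days, highest at 169 to 194 days, and -0.131 in the male of 743 days, lowest at 704 to 743 days. The same old male had the lowest Rplp0 spot 6672 of its age (0.260). The male of 193 days had the highest Rpl30 spot 3418 at 169 to 194 days (1.06 against a next value of 0.152).

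The female of 733 days was lowest of the mice of 704 to 743 days for Rps4x spot 15738 (0.770), Rpl4 spot 10593 (-0.638), Rps24 spot 9497 (-0.674) and Rps13 spot 11579 (-0.231). The male of 40 days was highest of its age group for Rpl31 spot 10592 (0.422) and Rpl4 spot 10593 (-0.00762), and highest of the 5 youngest males for Rps14 spot 10682 (0.274). The female of 704 days was highest for Rps9 spot 4590, both in its age group and in its round (0.713), and lowest of its round for Rpsa spot 8405 (1.08). The male of 498 days was the highest of the first round for that Rpsa clone (2.19).

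At 169 to 194 days the male of 180 days was lowest for Rps24 spot 9497 (-0.724) and, among the 5 males, for Rpl7l1 spot 8563 (0.799). There the male of 194 days was highest for Rpl39l spot 1947 (-0.160), the female of 180 days of the fifth round highest for Rps15a spot 7333 (-0.0544), and the male of 174 days lowest for Rplp2 spot 14480 (-0.352). The third-round female of 194 days was lowest of the 5 females of that age for Rpl34 spot 14376 (-0.306).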

How the results depend on the processing

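No ribosomal protein clone was called in any age or sex comparison under any setting run: values as deposited, no dim clones, round as a fixed or random block, array weights, another variance prior, log2 age for the slope, no mice of 17 to 21 days, no mice with an array standing apart, neighbouring spots taken off, and each mouse left out. That last but one setting, which took off the running median of 44 spot numbers on either side, was chosen after seeing the data. The median difference for 169 to 194 minus 17 to 44 days ran from 0.0249 to 0.0455 over the settings and from 0.0265 to 0.0451 with 1 mouse left out, and clones on the higher side from 98 to 112. The difference in mean deviation per mouse, 0.0342 over clones, was 0.0329 when the clones of a gene were averaged first. For 704 to 743 minus 169 to 194 days the median ran from -0.0171 to -0.00205 over the settings, with 53 to 68 clones higher. With 1 mouse left out the medians ran from 0.00281 to 0.0143 per year for the slope, 0.000478 to 0.0201 for 476 to 499 days, -0.0138 to 0.00381 for 704 to 743 days, -0.00967 to 0.00167 for sex (0.00230 with neighbouring spots taken off) and -0.0229 to 0.000734 for the 2 youngest classes. Over the settings the rounds called 7 to 35 clones. The lowest count, 7 (4.79%, against 11.9% of all clones), came without the 7 mice with an outlying array, and its cause was not tested. Without the 5 mice of 17 to 21 days 17 were called (11.6% against 22%). The highest count, 35 (24% against 35.1%), came with neighbouring spots taken off, and 1 mouse left out gave 14 to 28. The members' share was below that of all clones in each setting run and with each of the 40 mice left out. The 4 mice that moved it to 14 or 15 were the first-round male of 186 days and, of the fifth round, the male of 40 days, the female of 180 days and the male of 733 days. Signs turned in 5 cases, whose cause was not tested. For 169 to 194 minus 17 to 44 days, Rpl4 spot 10593 gave 0.00366 without those 7 mice, and with neighbouring spots taken off it gave 0.00804 and Rpl31 spot 10592 gave 0.00780. Rplp2 spot 14480 gave -0.0318 at 704 to 743 days without the 7 mice, and Rpl38 spot 11691 gave -0.0221 in the youngest classes with neighbouring spots taken off. Same-round mice had a median correlation of deviations of 0.112 on set A and 0.191 on set B. Mice of different rounds had -0.0602 and -0.0666, so same-round mice were more alike. Of 140 same-round pairs, 74 on set A and 94 on set B exceeded 0.1. The main age and sex fits held no term for the round. With the round as a replicate block, 0 members were called in each comparison, the median slope was 0.00644 per year, the medians of the 3 age differences and of sex were those without it (0.0340 for 169 to 194 minus 17 to 44 days), and the median of the youngest classes was -0.0162 in place of -0.0118.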
